A study of Homo sapiens with 2 samples.

Results

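Blood cell miRNAs are mature miRNAs whose high expression is known mainly from red cells, white cells or their precursors, and 9 of the 2588 mature miRNA names counted in this series belong to the set. They were chosen by name: hsa-miR-486-5p, hsa-miR-486-3p, hsa-miR-451a, hsa-miR-144-3p, hsa-miR-144-5p, hsa-miR-142-5p, hsa-miR-142-3p, hsa-miR-223-3p and hsa-miR-150-5p. The RNA came from MDA231, a human cell line from breast cancer (MDA-MB-231 in most of the literature), in its parental form, grown in DMEM with fetal bovine serum and antibiotics. In the bait library the cell lysate had met amylose resin carrying MACC1-AS1-MS2, a long non-coding RNA made with T7 RNA polymerase and tagged with MS2 hairpins, held there by maltose-binding protein fused to the MS2 coat protein. In the no-bait library the labels give no RNA substrate, so neither the tag alone nor an unrelated RNA served as control. Each group was 1 library of miRNAs eluted with maltose, and the question was which miRNAs stay with the tagged RNA. Without replicates, every difference below is between these libraries, and its 95% interval covers counting error only.

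Of the 9 miRNAs, 5 were detected and 4 had no read in either library. The set was carried by hsa-miR-486-5p, which took 368.6 RPM (its counts scaled to the library's total count) with bait and 793 RPM without it. The erythroid hsa-miR-451a stood at 3.82 RPM with bait against 37.1 RPM without, from too few counts for a call. The arms of the white-cell hairpin MIR142 did not follow: hsa-miR-142-5p stood at 43.0 and 33.4 RPM, and hsa-miR-142-3p at 16.2 RPM with bait and no read without. Summed, the 9 made up 436 RPM with bait and 879 RPM without, 2.01-fold lower with bait (interval 1.71 to 2.36). This ratio of 0.497 was 0.553 with TMM and 0.665 with DESeq2 scaling of the libraries, both short of 2-fold. Without hsa-miR-486-5p it was 0.795 (0.491 to 1.33). Of 231 miRNAs tested in the whole series, 26.8% were called lower by at least 2-fold.

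A miRNA is cut from a hairpin into a 5p and a 3p arm, and usually 1 arm is kept by an Argonaute protein and guides it to RNAs that pair with its seed, bases 2 to 8. miR-451a is an exception: it comes from the same erythroid transcript as miR-144, is too short for Dicer and is cut by Argonaute 2. miR-486 is abundant in red cells and muscle, miR-142 in nearly all white cells, miR-223 in neutrophils and monocytes, and miR-150 in mature lymphocytes. These miRNAs are used as marks of blood in tissue and plasma samples.

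The sequences below are the arms on which the white-cell results and the missing erythroid reads turn, from RefSeq on GRCh38.p14, where 5 of the 9 names were matched. Capitals mark the seed. hsa-miR-223-5p, the partner arm of hsa-miR-223-3p, is not in the set and is shown because it alone of that hairpin was counted.
hsa-miR-142-5p: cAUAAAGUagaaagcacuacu
hsa-miR-142-3p: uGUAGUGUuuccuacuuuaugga
hsa-miR-144-3p: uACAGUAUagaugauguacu
hsa-miR-223-3p: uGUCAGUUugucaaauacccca
hsa-miR-223-5p: cGUGUAUUugacaagcugaguu
No pair of these shares a seed. Of the other RefSeq miRNAs, hsa-miR-5590-3p alone has the seed of hsa-miR-142-5p, and it had 0 counts in both libraries.

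In the hairpins themselves, capitals mark both mature arms. MIR142 lies at chr17:58331232-58331318 on the minus strand, inside an exon of the antisense transcript AC004687.1 in GENCODE 29 and, on the other strand, an intron of TSPOAP1-AS1. MIR223 lies at chrX:66018870-66018979 on the plus strand, inside an exon of AL034397.3.
MIR142: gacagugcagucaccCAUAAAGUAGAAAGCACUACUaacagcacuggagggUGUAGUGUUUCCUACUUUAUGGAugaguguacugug
MIR223: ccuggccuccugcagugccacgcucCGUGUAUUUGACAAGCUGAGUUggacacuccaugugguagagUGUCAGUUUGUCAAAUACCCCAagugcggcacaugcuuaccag
Reads with bait fell on both capitals of MIR142, while the 4 reads of MIR223 without bait and the 12 with bait all fell on the first capitals.

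The libraries held 1047269 counts with bait and 269716 without, a 3.88-fold difference in depth. A single read is worth 0.955 RPM with bait and 3.71 RPM without. A miRNA with 0 counts could lie at up to 3.52 RPM with bait and 13.7 RPM without (exact Clopper-Pearson upper 95% limits). The labelled line was checked against its markers: the 6 miRNAs listed as abundant in this mesenchymal, basal-type line took 53.2% of counts with bait and 60.0% without. Of 5 miRNAs listed as low in it, hsa-miR-141-3p and hsa-miR-205-5p had 0 counts in both, and all 5 together had 46 counts and 2 counts. hsa-miR-200b-3p, an epithelial miRNA of the same family that was not on that list, had more than these, with 144 and 28 counts.

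**Figure D1:**
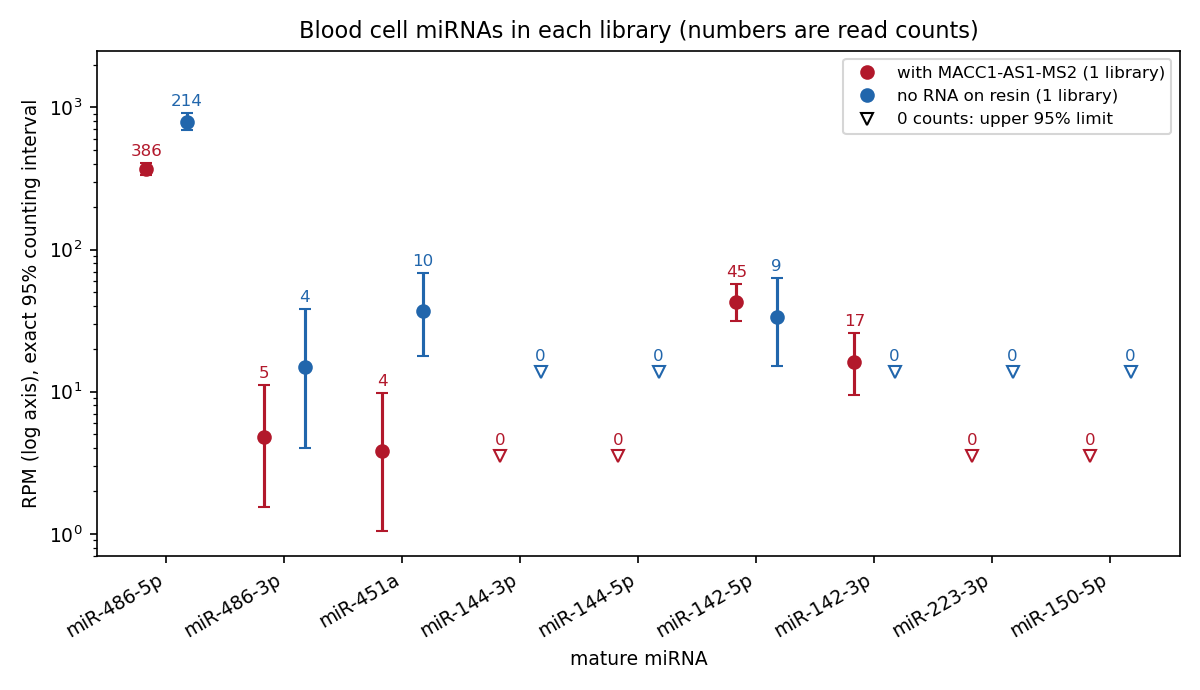
Level of each of the 9 blood cell miRNAs in RPM on a log axis, with the bait library in red and the no-bait library in blue. Circles carry exact 95% counting intervals, open triangles mark upper limits for 0 counts, and the numbers are read counts: hsa-miR-486-5p stands above all others in both libraries, and its intervals do not overlap.

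Among the erythroid members, hsa-miR-486-5p was counted 386 times with bait and 214 times without. At these depths its level was 368.6 RPM (interval 333 to 407) with bait and 793 RPM (691 to 907) without. It ranked 71st among all names with bait and 50th without. The names detected numbered 651 with bait and 476 without, so hsa-miR-486-5p stood in the upper part of both libraries. It lay 804-fold below miR-100-5p, the most abundant miRNA, with bait and 571-fold below it without. The bait over no-bait ratio was 0.465 (0.392 to 0.552), or 2.15-fold lower with bait.

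The call rule asked for at least 30 counts over both libraries and a ratio of at least 2, or at most 0.5, with an interval that excludes 1. By it hsa-miR-486-5p was called lower, and it was the 1 member called of 2 tested. Among all 231 tested miRNAs 26.8% were called lower and 39.4% higher, and the median ratio was 1.46. Among the 46 tested miRNAs whose RPM summed over the libraries lay within 2-fold of that of hsa-miR-486-5p, 34.8% were called lower. A ratio as low as that of hsa-miR-486-5p or lower was seen for 57 of the 231, so a share this much lower with bait was common among the tested miRNAs.

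hsa-miR-486-3p, the other arm of the same hairpins, was counted 5 times with bait and 4 times without, or 4.77 and 14.8 RPM. Its ratio was 0.322 with an interval of 0.0693 to 1.62, too wide to tell a difference. The 5p arm made up 98.7% of the reads of both arms with bait (97.0% to 99.6%) and 98.2% without (95.4% to 99.5%). The arm balance of miR-486 thus differed by less than its counting error, with an odds ratio of 1.44 (0.283 to 6.78) for the 5p arm.

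The miR-486 arms are annotated on overlapping hairpins of opposite strand in an intron of ANK1, the gene of the red cell membrane protein ankyrin 1. MIR486-1 spans 41660441 to 41660508 on the minus strand and MIR486-2 spans 41660444 to 41660507 on the plus strand of chromosome 8 (GRCh38). No source used here says how the authors assigned reads that fit both. MIR451A (28861369 to 28861440), MIR144 (28861533 to 28861618) and MIR4732 (28861655 to 28861730) follow each other on the minus strand of chromosome 17, inside an exon of the long non-coding transcript AC024267.1.

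From that chromosome 17 cluster, only hsa-miR-451a was counted. It reached 4 counts in the deeper bait library and 10 counts in the no-bait library. Its level was 3.82 RPM (1.04 to 9.78) with bait and 37.1 RPM (17.8 to 68.2) without, and these intervals do not overlap. The ratio was 0.103 (0.0236 to 0.357), or 9.71-fold lower with bait. At the no-bait share, 38.8 counts would have stood in the bait library, where 4 were seen. With 14 counts in all, hsa-miR-451a was under the minimum of 30 and was not among the tested miRNAs. At a minimum of 10 counts it was called lower, for 2 of 4 members, while 24.9% of 325 miRNAs were called lower and 29.2% higher. Of those 325, 21 had a ratio at or below that of hsa-miR-451a.

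hsa-miR-144-3p and hsa-miR-144-5p, cut from the hairpin next to MIR451A, had 0 counts in both libraries. So had hsa-miR-451b, from the opposite strand of MIR451A, and both arms of miR-4732. Of all 2588 names, 1873 (72.4%) had no count in either library, so an absent name was the common case. Because 10 counts of hsa-miR-451a amount to 37.1 RPM without bait, each miR-144 arm lay below it there, at no more than 13.7 RPM.

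Summed over its 5 names, the erythroid group (both miR-486 arms, hsa-miR-451a and both miR-144 arms) reached 395 counts with bait and 228 without. This is 377 and 845 RPM, a ratio of 0.446 (0.378 to 0.528). Without hsa-miR-486-5p the group kept 9 reads with bait and 14 without, and its ratio was 0.166 (0.0632 to 0.411). The sum was thus lower with bait both with and without the dominant member, although the interval of hsa-miR-486-3p alone held 1 and DESeq2 size factors put the sum of all 5 names at 0.598, short of a call. hsa-miR-451a was lower than hsa-miR-486-5p relative to its own no-bait level, 4.50-fold (1.28 to 19.9), a comparison that does not depend on the scaling between libraries.

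**Figure D2:**
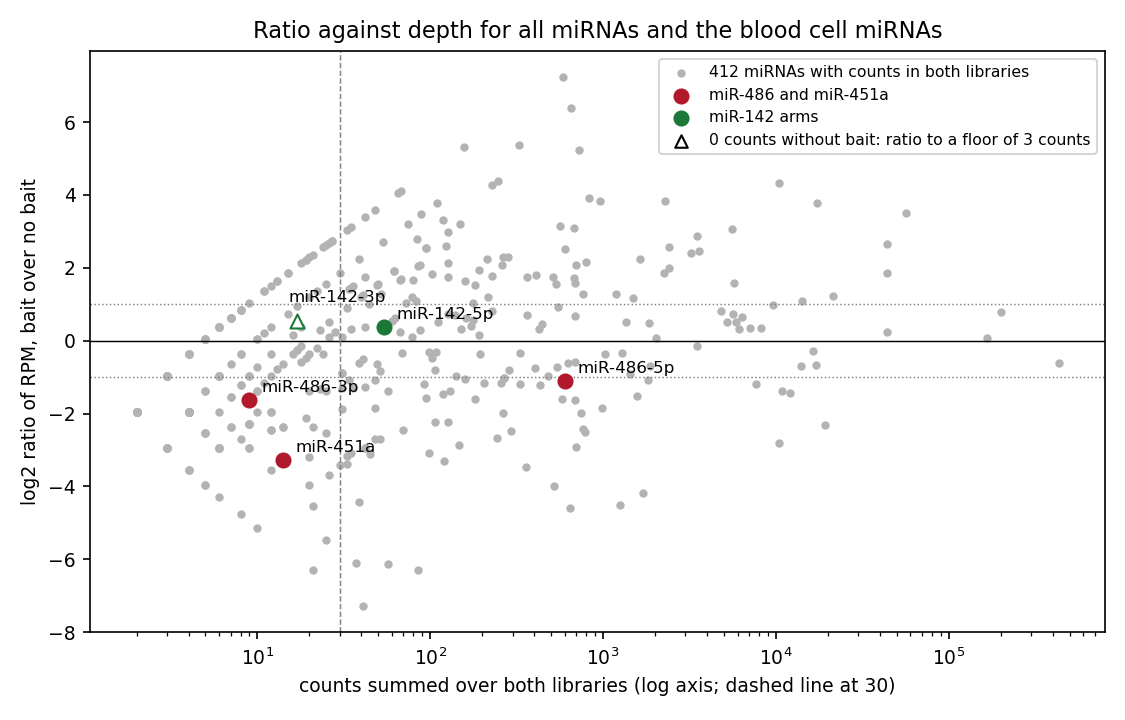
The log2 ratio of RPM, bait over no bait, against the counts summed over both libraries (log axis) for the 412 miRNAs with counts in both (grey), with the detected blood cell miRNAs in colour. Dotted lines mark 2-fold and the dashed line the minimum of 30 counts: hsa-miR-486-5p lies at -1.11 inside the grey cloud, hsa-miR-451a at -3.28 left of the minimum, and the triangle of hsa-miR-142-3p is its ratio to a floor of 3 counts in place of 0.

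Among the white-cell members, hsa-miR-142-5p was counted 45 times with bait and 9 times without. It reached 43.0 RPM (31.3 to 57.5) with bait and 33.4 RPM (15.3 to 63.3) without, and these intervals overlap. The ratio was 1.29 (0.622 to 2.996). It passed neither rule, and a difference of up to 2.996-fold higher or 1.61-fold lower was within its counting error.

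hsa-miR-142-3p, cut from the same hairpin, had 17 counts with bait and 0 counts without. At equal shares 4.38 counts would have stood in the no-bait library. With a floor of 3 counts set in place of the 0, its ratio was 1.46, and the lower bound of the interval from the 0 itself was 1.06. That bound was 1.18 with TMM factors and 1.42 with DESeq2 size factors. When the 5 most abundant miRNAs were left out of the totals it was 0.972, so its exclusion of 1 did not hold under every scaling. Of the 62 names with 12 to 24 counts with bait, a range around that of hsa-miR-142-3p chosen after its value was seen, 17 (27.4%) had 0 counts without bait. The 3p arm took 27.4% of the MIR142 reads with bait (16.9% to 40.2%), and none of 9 reads without bait, which allows up to 33.6%. A difference in arm balance between the libraries was therefore not detected, with an interval of 0 to 1.53 for the odds ratio of the 5p arm.

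Summed, the arms of MIR142 gave 62 counts and 9 counts, or 59.2 and 33.4 RPM, a ratio of 1.77 (0.877 to 4.06). These were all the reads of the white-cell group, since its other members were not seen. hsa-miR-223-3p, known as the main arm of the myeloid miR-223, had 0 counts in both libraries, and so had the lymphocyte miRNA hsa-miR-150-5p (MIR150, chromosome 19, 49500785 to 49500868, minus strand, in no other annotated gene). Each could lie at up to 3.52 RPM with bait, against the 43.0 RPM of hsa-miR-142-5p. The partner arm hsa-miR-223-5p reached 12 counts and 4 counts, and its ratio of 0.773 had an interval of 0.234 to 3.29. The 3p share of MIR223 was thus 0 of 12 reads with bait, which allows up to 26.5%. Whether the authors' miRNA reference or counting bears on the 0 of this usually dominant arm could not be checked from the files, and the limits above assume that it was counted like any other name.

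Among the 9 members, the erythroid and the white-cell reads differed from each other in ratio. This split was made after the data were seen, and its sides are mainly hsa-miR-486-5p and the arms of MIR142. It does not extend to white-cell miRNAs in general. Of the further blood-linked miRNAs with at least 10 counts, hsa-miR-155-5p (ratio 0.258) and hsa-miR-223-5p (0.773) lay below 1. hsa-miR-342-3p (1.29) and hsa-miR-146a-5p (1.77) lay above it. Set against the white-cell group, the erythroid group was 3.97-fold lower with bait (1.91 to 9.26), a value that holds whatever scaling joins the libraries. Without hsa-miR-486-5p it was 10.3-fold lower (3.17 to 36.8), and against hsa-miR-142-5p alone 2.88-fold lower (1.36 to 6.83). The interval excluded 1 in each of these, which share reads. With 26.8% of the 231 tested miRNAs called lower and 39.4% called higher, ratios on either side of 1 were common. The values are shares of the reads in maltose eluates from the lysate of a cell line, so levels per cell cannot be read from them.

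Within the summed reads of the 9 miRNAs, hsa-miR-486-5p made up 84.5% with bait (80.8% to 87.7%) and 90.3% without (85.8% to 93.7%). hsa-miR-142-5p made up 9.85% (7.27% to 12.95%) and 3.80% (1.75% to 7.09%). hsa-miR-451a made up 0.875% (0.239% to 2.23%) and 4.22% (2.04% to 7.62%). The sum is therefore close to a measure of hsa-miR-486-5p. Without it, the other 8 names stood at 67.8 and 85.3 RPM, a ratio of 0.795 (0.491 to 1.33) that passed neither rule. In that remainder hsa-miR-451a and hsa-miR-142-5p were near in number without bait, at 43.5% and 39.1%, while with bait they took 5.63% and 63.4%.

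**Figure D3:**
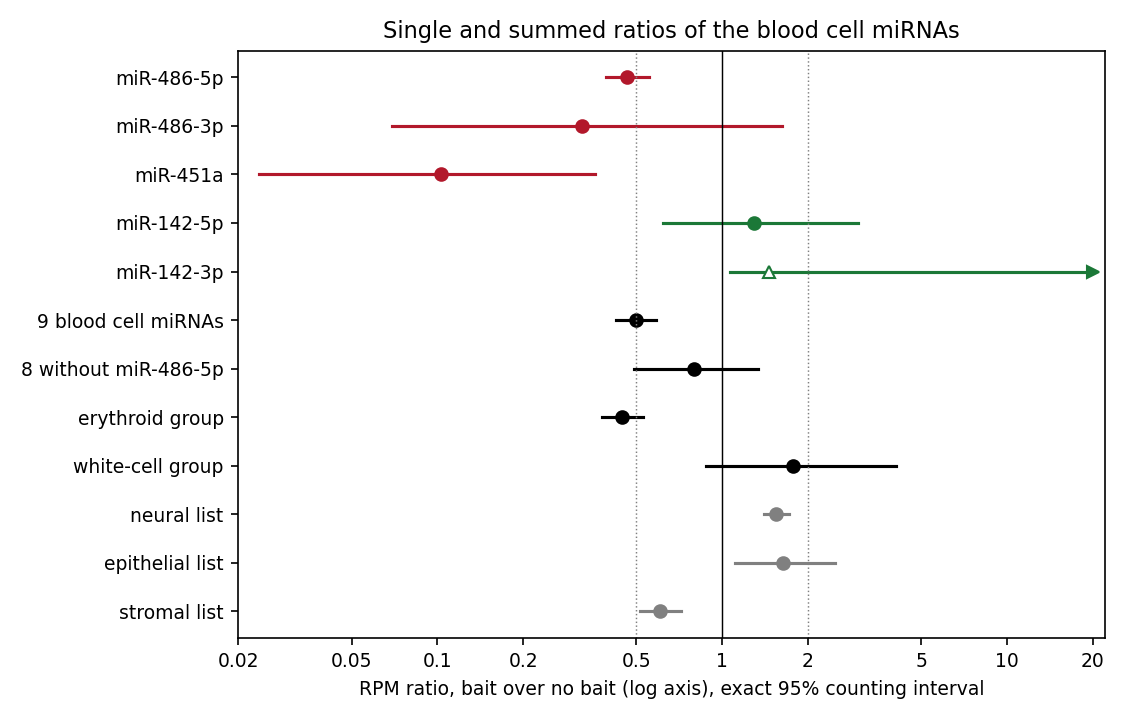
Ratio of RPM, bait over no bait, on a log axis, with exact 95% counting intervals, for the 5 detected blood cell miRNAs, their sums (black) and the lists of other tissues (grey). The triangle is a ratio against the floor of 3 counts with no upper bound. The erythroid group lies at 0.446, and the white-cell group lies at 1.77 with an interval that holds 1 (0.877 to 4.06).

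The scaling decided whether the drop passed 2-fold. TMM factors multiply every ratio by 1.11 and DESeq2 size factors by 1.34, and totals without the 5 most abundant miRNAs by 0.915. These are shifts of 0.15, 0.42 and -0.13 on the log2 scale. hsa-miR-486-5p had a ratio of 0.517 with TMM and 0.622 with DESeq2, and was called lower with neither, so no tested member was called there against 23.4% of all tested miRNAs with TMM and 19% with DESeq2. Its interval stayed below 1 in each, with an upper bound of 0.614 and 0.739. The sum of the 9 lost its call in the same way, at 0.553 and 0.665.

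**Figure D4:**
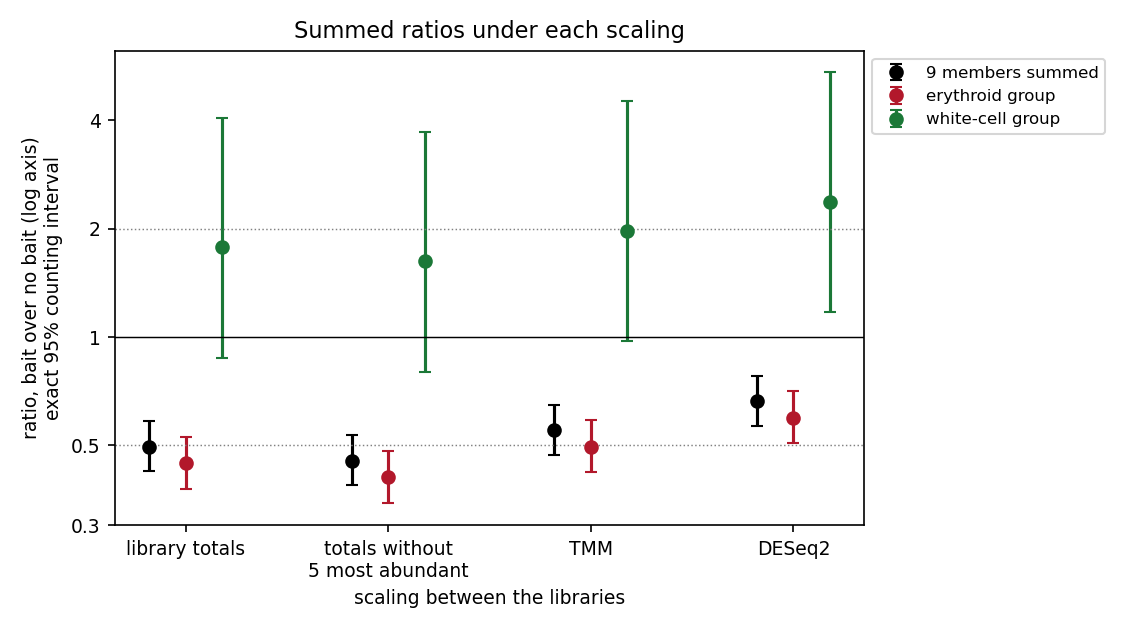
Ratio of summed counts, bait over no bait, on a log axis under each of 4 scalings, with exact 95% counting intervals, for all 9 blood cell miRNAs, the erythroid group and the white-cell group. The erythroid group moves from 0.408 to 0.598 and the white-cell group from 1.62 to 2.38, and the order of the groups is the same under each.

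Of 10 further miRNAs known from blood lineages, 4 had 0 counts in both libraries and 1 was tested. That was hsa-miR-146a-5p, a feedback brake on NF-kB signalling that is not restricted to blood, with 4216 and 613 counts, 4026 and 2273 RPM, and a ratio of 1.77 (1.63 to 1.93) that passed neither rule. It alone exceeded the 9 blood cell miRNAs together in both libraries. hsa-miR-155-5p, known from activated lymphocytes and macrophages, had 6 counts in each, a ratio of 0.258 (0.0689 to 0.963). hsa-miR-342-3p, abundant in lymphocytes, was seen 10 times with bait and 2 times without, with a ratio of 1.29 (0.274 to 12.1). The 9 names other than hsa-miR-146a-5p summed to 33.4 RPM with bait and 44.5 RPM without, a ratio of 0.751 (0.381 to 1.59).

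Lists of miRNAs typical of other tissues served as comparison. Against 8 neural miRNAs (2649 and 1709 RPM, led by hsa-miR-128-3p), the sum of the blood cell miRNAs was 3.12-fold lower with bait (2.58 to 3.77). Against that list without hsa-miR-128-3p it was 10.2-fold lower (7.46 to 14.1), but most of that remainder was hsa-miR-138-5p (938 and 17 counts, ratio 14.2). The neural hsa-miR-129-5p went the other way, with 4 and 16 counts. Against 6 epithelial miRNAs (181 and 111 RPM, led by hsa-miR-200b-3p) it was 3.28-fold lower (2.15 to 5.16). Against 6 stromal miRNAs (479 and 790 RPM, led by hsa-miR-143-3p) the interval of 0.971 to 1.54 around 1.22-fold lower held 1. Against the stromal list without hsa-miR-143-3p the odds ratio was 1.01 (0.766 to 1.32). The white-cell group did not differ beyond counting error from the neural list, with an odds ratio of 1.14 (0.561 to 2.64), or from the epithelial list, at 1.09 (0.471 to 2.75), but it was 2.92-fold higher with bait than the stromal list (1.41 to 6.81).

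By level in both libraries, measured as the distance in log2(RPM + 1) over these 2 libraries, the miRNAs nearest to hsa-miR-486-5p were hsa-miR-28-3p (ratio 0.331, 0.280 to 0.391), hsa-let-7e-5p (0.661) and hsa-miR-625-3p (0.663). Nearest to hsa-miR-142-5p were hsa-miR-28-5p (ratio 1.46, 0.712 to 3.37), hsa-miR-8485 and hsa-miR-107. The arms of miR-28 thus lay nearest in level to an erythroid and to a white-cell member. Because the distance uses the same levels as the ratio, similar ratios follow from the choice and are not a result.

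In the authors' deposited table, the p-value was under 0.05 for 2 of the 5 detected blood cell miRNAs, against 20% of the 715 names detected in either library. They were hsa-miR-451a, with a log2 fold change of -3.28 and p = 0.00407 in the authors' deposited table, and hsa-miR-142-3p, with 10.66 and p = 0.0400 there. The second fold change reflects the 0.01 RPM that the table sets in place of 0, where the interval from the counts themselves begins at 1.06-fold. hsa-miR-486-5p had a p of 0.159 in the authors' deposited table despite 600 counts. The test behind these values is not named in the sources used here, and it compares 2 libraries rather than conditions.

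The annotated MACC1-AS1 transcript of 639 nt was searched on its own strand for the complement of each available seed. The matches searched were ACTTTAT for hsa-miR-142-5p, ACACTAC for hsa-miR-142-3p, ATACTGT for hsa-miR-144-3p, TGATATC for hsa-miR-144-5p and AACTGAC for hsa-miR-223-3p. None of the 5 members with a sequence had a match. hsa-miR-486-5p, hsa-miR-486-3p, hsa-miR-451a and hsa-miR-150-5p had no sequence in the source used and were not searched. The result therefore covers no detected erythroid member. Among 6422 other annotated long non-coding transcripts within 50 nt of that length, 4.03% held the match for hsa-miR-142-5p and 1.84% that for hsa-miR-142-3p, so its absence was the usual case. hsa-miR-223-5p had 1 match, AATACAC at base 11 of the transcript, which 3.21% of those transcripts hold. The search did not cover the MS2 tag or other isoforms.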

How the data were processed

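Small RNA reads from the maltose eluates of 1 bait and 1 no-bait library were analysed. The authors deposited a whole-number count per mature miRNA and an RPM value, which equalled the count over its library total within 0.00994 RPM. The authors' deposited table adds a log2 fold change (0 RPM set to 0.01) and a p-value. The submitters' processing notes name BWA as a tool. Version, reference, build and handling of shared reads were not given in the sources used here.

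Ratios were counts over library totals, bait over no bait, with exact conditional binomial 95% intervals. Shares and RPM levels have Clopper-Pearson intervals, and comparisons between sets are conditional odds ratios with exact intervals (scipy 1.17.1). Reads carry no molecular identifiers, so intervals and the floor of 3 counts cover counting error only. No p-value was computed. The call rule was applied to all 2588 names. Its check on simulated counts held counting error only, for names with at least 30 counts, so variation between libraries was not covered.

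The members and lists were chosen with earlier results of these data known. Named are all members, further blood miRNAs with at least 10 counts, the leading member of each comparison list, and the 3 miRNAs nearest in level to each tested member. Alternatives were TMM (edgeR 4.0.16), DESeq2 1.42.0 size factors, totals without the 5 most abundant miRNAs, the deposited RPM, other minimums and left-out members. Sequences are from RefSeq (GRCh38.p14), positions and transcripts from GENCODE 29 (GRCh38).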

Additional observations from a re-analysis of the deposited data

How the results depend on the processing

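The summed ratio of 0.497 was lower by less than 2-fold with TMM (0.553) and DESeq2 size factors (0.665), which follows from their factors. It also missed 2-fold in the sum without hsa-miR-486-5p (0.795) or without hsa-miR-451a (0.514). Leaving out any other detected member kept it between 0.465 and 0.4996. The count of members called lower, 1 with library totals, was 0 with TMM, 0 with DESeq2 and 0 where the interval bound itself had to pass 2-fold. It was 2 at a minimum of 10 counts and 2 with no minimum, where hsa-miR-451a is added. The count called higher was 0 under every setting run. For hsa-miR-142-3p this follows from the minimum counts or from the floor of 3 counts in place of 0, which puts its ratio at 1.46. The erythroid group lost its call with DESeq2 (0.598), and the white-cell group was called higher there (2.38). With DESeq2 the neural list (2.08) and the epithelial list (2.19) were called higher too. The sums by erythroid and white-cell group, and the odds ratios between them without single members (0.0968 to 0.347 beside 0.252), were added after the data were seen. Among single members, only hsa-miR-486-5p with DESeq2 left its counting interval, and it lost its call there (0.622) and with TMM (0.517). The no-bait depth limits all members but hsa-miR-486-5p. No paired analysis was possible because each group holds 1 library.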
